A study of Arabidopsis thaliana with 34 samples.

Results

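The ethylene-responsive transcription factors outside group VII were examined as 96 genes among the 21884 genes of the Arabidopsis thaliana rosette table. Members were all genes whose deposited description names an ethylene-responsive transcription factor, which held for 101 genes, less 8 loci set aside (the group VII factors and 3 CBF genes), of which 5 carried that description. The label did not match the annotation everywhere. AT5G51180 is described first as an alpha/beta-hydrolase and only then as ERF105, and AT1G01840 is an AP2-like entry without a factor name of its own. Both were kept because the wording of the description decides membership. The members were ordered by role. They were 11 ethylene and defence activators of group IX, 8 repressors of group VIII, 8 cytokinin response factors and 5 factors of group X. The rest were 3 organ boundary regulators, 2 wax and cutin regulators, 12 AP2-like factors and 47 others. The others include factors of the DREB branch, CRF9 to CRF12, RAP2.7 and WRI1. AP2-like factors were taken by that wording of the description, so RAP2.7 and WRI1 fell outside a group that holds TOE2, SNZ and WRI4.

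Proteins of this family share the AP2 DNA-binding domain. Ethylene stabilises EIN3-type factors, which switch on ERF genes, and many ERF proteins then bind GCC-box or related elements in promoters of defence, wound and stress genes. Several members are repressors that carry an EAR motif, and others act in meristems, organ boundaries and the cuticle. VRN2 is a subunit of a Polycomb repressive complex that deposits H3K27me3, a mark of silenced chromatin. VRN2 and the group VII factors are both substrates of the N-degron pathway, in which the ubiquitin ligase PRT6 marks them for degradation while oxygen and nitric oxide are present.

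Whole seedlings gave mRNA libraries of Col-0, vrn2-5, prt6-1 and the double mutant vrn2-5 prt6-1, with 3 libraries each. VRN2-YFP chromatin came from seedlings of vrn2-5 carrying VRN2-YFP under the VRN2 promoter, with 3 immunoprecipitations and 3 inputs, and H3K27me3 was profiled in seedlings of Col-0 and vrn2-5, with 3 immunoprecipitations and 3 inputs each. mRNA was also sequenced from whole rosettes, with 2 libraries of pif4-2 and 2 of vrn2-5 pif4-2, so every rosette plant carried pif4-2 and no wild-type rosette served as control. No source used here gives age, light or temperature. Separate plantings for the replicates are not stated, so a p-value reflects only how these libraries scatter, which could be technical.

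Seedling depth fell into separate ranges, with 6 libraries between 9232780 and 27853214 reads and 6 between 1208836 and 1786079, where 1 read is worth 3.35 to 5.00 normalized reads. Rosette libraries held 15912781 to 26322823 counts. The double mutant rosette libraries stood apart, with 2490 and 4572 genes at 0 against 695 and 803 in pif4-2. Of the 96 members, 23 and 28 were at 0 there, against 1 and 4 in pif4-2. VRN2 itself was lower in every library labelled vrn2-5 or vrn2-5 prt6-1, at 36.7 to 76.8 normalized reads against 116 to 163 elsewhere. PRT6 transcript was not lower in libraries labelled prt6-1 (49.6 to 142 normalized reads, against 0 to 57.7 in Col-0), so it did not check that label. Leaf markers were abundant in every library, root markers were present at a summed 426 to 637 normalized reads in seedlings, and none of the 12 seed maturation genes was in the seedling table.

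VRN2-YFP peaks lay at 14 members. They were ERF4, RAP2.4, ERF020, ERF055, RAP2.13, ERF023, ERF035, ERF12, ERF098, ERF016, ERF034, ERF10, CRF1 and SHN3. A member counted when its gene body or the 1 kb upstream touched an interval with peaks from at least 2 of the 3 replicate lists, which held for 14.6% of members and 4% of all 21713 nuclear genes with coordinates. No test of that difference was made, since the members were chosen with earlier results known. With peaks from all 3 lists in 1 interval the counts were 6 of 96 members (6.25%) and 1.45% of genes. Counting the gene body alone left all 14 members, while the share of genes fell to 2.69%.

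The single highest fold was at ERF4, an EAR-motif repressor that is itself induced by ethylene, although ERF020 was higher in list 1 and ERF023 in list 2. The authors' fold over background at ERF4 was 3.96, 2.54 and 4.89 in lists 1, 2 and 3. Its peak in list 3 ranked 13th by fold among 4586, and lay at chr3:5122177-5122718 (TAIR10) towards the end of the gene. At ERF020, a DREB-branch factor, the authors' fold was 4.11, 2.71 and 2.48. The list 1 peak at chr1:26938542-26939106 was centred 455 bp from the start of the 899 bp gene. Among the repressors of group VIII, 3 of 8 carried a shared peak (ERF4, ERF10 and ERF12). None of the 12 AP2-like factors and none of the 3 boundary regulators did.

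Other bound loci belong to the WIND group, regulators of wound-induced dedifferentiation and callus formation: RAP2.4 (WIND1), RAP2.13 (WIND2) and ERF055 (WIND3). The fourth, ERF057 (WIND4), had no peak in any list. This grouping was made after the values were seen. At RAP2.4 the highest fold was 2.46, 2.23 and 4.17 in lists 1, 2 and 3, and the peaks fell at separate places, so that no single interval held all 3 lists. Its list 3 peak, 18th by fold in that list, was centred at the end of the gene. At RAP2.13 the fold was 2.27, 1.72 and 3.60, with the list 3 peak centred 129 bp after the gene start. At ERF055 it was 3.81, 2.85 and 2.30, with the list 1 peak centred 1268 bp into a gene of 1841 bp. ERF4, RAP2.4 and RAP2.13 were highest in list 3, while ERF020, ERF055 and ERF035 were highest in list 1.

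Over all 14 members there were 38 peaks of 209 to 1581 bp (median 487 bp), and 36 of them were centred inside the gene. ERF023 had fold values of 3.27 and 2.90 in lists 1 and 2 and no peak in list 3, and ERF12 had 2.61 and 2.129 in the same lists. ERF035 reached 3.26, 2.64 and 1.97. The other 6 bound members had their highest folds between 1.92 and 2.54. A further 17 members had a peak in 1 list or at places that the lists did not share, SNZ, DRNL, ANT and AIL6 among them.

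**Figure D1:**
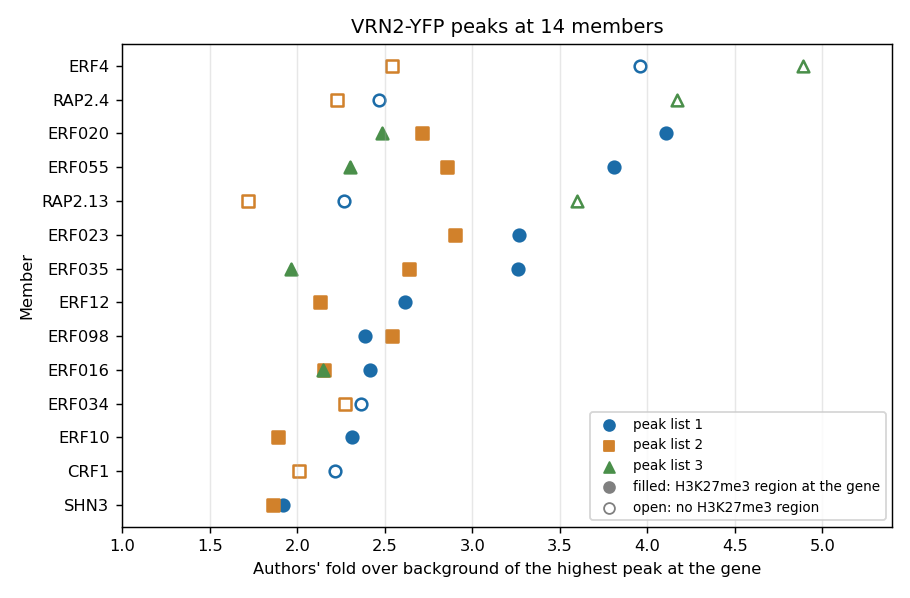
The authors' fold over background of the highest VRN2-YFP peak (x axis) at each of the 14 members with a shared peak (y axis), 1 symbol per replicate peak list. Filled symbols mark the 9 members with an H3K27me3 region, and open symbols the 5 without, which include ERF4 with the highest value of 4.89.

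An H3K27me3 region lay at 37 of the 96 members (38.5%), against 28.2% of nuclear genes. A member counted when a region in at least 2 of the 3 replicate tables touched the gene or its upstream 1 kb. With the gene body alone it was 35 members (36.5%) and 19.4% of genes. All 3 boundary regulators were marked: DRNL, which promotes organ initiation, LEP, which acts in leaf and petiole development, and PUCHI, which shapes lateral root and flower primordia. Both wax and cutin regulators (SHN2 and SHN3) were marked, as were 5 of 12 AP2-like factors (ANT, AIL5, AIL6, AIL7 and SNZ), 4 of 11 group IX activators, 3 of 5 group X factors and 2 of 8 group VIII repressors. None of the 8 cytokinin response factors in the CRF role group was marked. CRF9, which was placed among the others, had a region in all 3 tables. VRN2-YFP peaks and the mark met at 9 members (9.38%, against 3.10% of genes). ERF4, RAP2.4, RAP2.13, ERF034 and CRF1 had a peak and no region (5.21%, against 0.898% of genes).

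The change of H3K27me3 in vrn2-5 was read from the replicate tables with library A as vrn2-5 and B as Col-0, in the order of the comparison's name. If the order were the other way, every direction given here would turn. In the authors' deposited tables, 11 members (11.5%) had a region lower in vrn2-5 at a false discovery rate under 0.05 in at least 2 tables, close to the 9.78% of all genes. These were ERF020, ERF6, LEP, AIL7, ERF12, ERF023, ERF098, ANT, ERF055, ERF114 and ERF10. Another 5 members (5.21%, against 2.66% of genes) had a region higher by the same rule: WRI1, ERF037, DRNL, ERF15 and ERF027. Asking for all 3 tables left 3 members lower and 1 higher.

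Among the members, ERF020 had the largest fall of the mark. Its region of 0.6 to 0.8 kb held 27.1, 20.0 and 15.0 normalized reads per kb in Col-0 in replicates 1, 2 and 3, against 16.01, 9.82 and 8.57 in vrn2-5. The vrn2-5 value was the lower in each table, and the log2 ratio averaged -0.86 ± 0.14 (SD, n = 3; adjusted p = 0.0125, limma over 4627 genes with a region in all tables). Replicate 1 held 174 raw reads in vrn2-5 against 341 in Col-0. The VRN2-YFP peak given above overlapped this short region. In the authors' deposited tables the false discovery rate of the decrease was between 2.33e-18 and 6.74e-07.

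Of 33 members with a region in all 3 tables, limma called 3, all lower, against 13.2% of the 4627 genes in both directions and 12.4% lower. Besides ERF020 these were AIL7, a PLETHORA-type factor of shoot meristems and flowers, and ERF023. AIL7 had log2 ratios of -0.41, -0.21 and -0.34 (mean -0.32 ± 0.10 SD, n = 3; adjusted p = 0.0271, limma), and ERF023 had -0.24, -0.13 and -0.29 (mean -0.22 ± 0.08 SD, n = 3; adjusted p = 0.0477, limma). The value was below 0 in all tables for each of these genes. Without replicate 2 or without replicate 3 none of the 4627 genes was called (1125 and 1269 at an unadjusted p under 0.05), while without replicate 1 ERF020 and AIL7 were still called, with ERF098. The ERF023 call was lost without any one of the replicates (adjusted p = 0.0520 to 0.157, limma) and after centring each table on its median gene (adjusted p = 0.0933, limma), and was kept with the gene body alone. Genes that share a region share its value.

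The median log2 ratio of the 33 members was -0.04, beside -0.07 over all 4627 genes, and 23 of them were below 0 (70.2% of genes were). At the 9 members that also had a VRN2-YFP peak the median was -0.10, beside -0.09 for the 624 genes of that kind, and at the 24 without a peak it was -0.04, beside -0.06. ERF6, a stress and pathogen response activator, had a region in 2 tables only, with log2 ratios of -0.62 and -0.38. These regions lay upstream of the gene. LEP had -0.49, -0.45 and -0.07, and ERF12 had -0.29, -0.41 and -0.02, so that replicate 3 was near 0 at both. ERF055 had -0.10, -0.14 and -0.07, and its region covered the start of the gene while its peaks lay in the later part.

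Among the members with more mark, ERF037, a DREB-branch factor, had the steadiest values, with log2 ratios of 0.12, 0.13 and 0.14 (mean 0.13 ± 0.01 SD, n = 3; adjusted p = 0.0868, limma), which missed the threshold. DRNL carried 50.6, 37.3 and 31.9 normalized reads per kb in Col-0 and 55.6, 40.9 and 33.3 in vrn2-5. WRI1, the activator of seed oil synthesis, had log2 ratios of 0.21 and 0.13 and no region in replicate 3. Its regions began near the end of the gene and lay mostly beyond it. ERF027 had 0.08, 0.10 and 0.06. ERF15 is counted through any region that touches it. The region with the largest overlap read 0.04, -0.10 and 0.32, so its tables differed in sign.

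**Figure D2:**
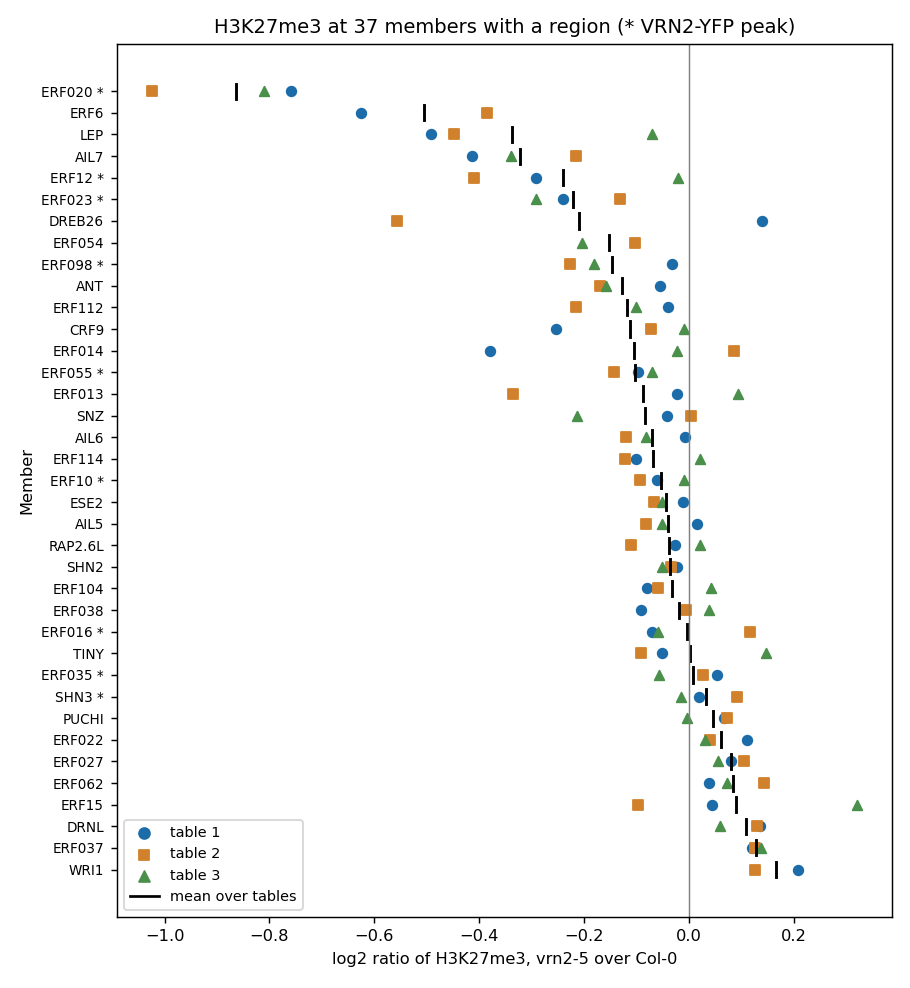
The log2 ratio of H3K27me3 in vrn2-5 over Col-0 (x axis) at the 37 members with a region (y axis), 1 symbol per replicate table, with a black bar for the mean. ERF020 stands lowest, with all tables at or below -0.76, and most other members lie within 0.4 of 0.

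Seedling RNA ranged widely among members. The table held 78 of the 96, and 63 had a mean of at least 10 normalized reads and were tested. The other 18, DRNL, LEP, PUCHI, ERF020, AIL7 and ERF098 among them, are not in that table. Of the 37 marked members 23 were in the table (62.2%, against 71.0% of all marked genes), and of the 59 unmarked ones 55 were (93.2%, against 86.1%). Per kb of gene length, marked members in the table had a median of 10.7 normalized reads in Col-0 and unmarked ones 36.5. The same medians over all genes were 31.3 and 61.7. Of the 9 members with peak and mark, the 6 in the table had a median of 7.80 per kb and ran from SHN3 at 0.0899 to ERF055 at 229, beside a median of 29.5 over all genes of that kind. The 5 with a peak and no mark had a median of 156 per kb, from CRF1 at 4.85 to RAP2.4 at 457, beside 76.9 over all such genes.

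The group IX activators held the most abundant transcripts. ERF107 (DEWAX, a repressor of cuticular wax genes despite this grouping) reached 1075 ± 272 normalized reads per kb in Col-0 (SD, n = 3), and its relative ERF106 reached 569 ± 38.5. RAP2.4 followed at 457 ± 31.0, RAP2.13 at 369 ± 174 and WRI4, a wax synthesis activator, at 251 ± 145. ERF1A, an activator of GCC-box genes, stood at 236 ± 72.3, the stress factor ERF104 at 234 ± 68.6 and ERF055 at 229 ± 74.1. AT2G41710, an AP2-like gene, had 157 ± 40.8 and ERF4 156 ± 54.3. From RAP2.4 to ERF055 the neighbours in this order did not differ beyond their spread.

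Within the roles, the group VIII repressors ERF4, ERF3 and ERF7 stood at 156, 147 and 121 normalized reads per kb, and the marked pair ERF10 and ERF12 at 10.7 and 4.31. Cytokinin response factors ran from 4.85 (CRF1, the bound one) to 74.4 (CRF6). Of the meristem factors, ANT stood at 29.1 per kb, which was the median of the AP2-like factors, and AIL6 at 3.99. AIL6 was at 0 in both shallow Col-0 libraries and at 36.9 normalized reads in the deep one. SHN3, with both peak and mark, was nearly silent at 0.0899 per kb. In whole seedlings a low level cannot tell fewer expressing cells from less RNA per cell.

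In pif4-2 rosettes the authors' FPKM values put ERF106 first, at 80.05 and 80.1 in replicates 1 and 2. RAP2.4 had 43.3 and 58.0, RAP2.7 (TOE1, a repressor of flowering) 30.3 and 30.5, ERF107 30.3 and 25.5, and SNZ, a relative of TOE1, 25.2 and 29.1. SNZ was the highest marked member there. ERF055, prominent in seedlings, was low in rosettes, at 0.445 and 0.309 FPKM. Tissue, age and table differ together here and the tables were normalized separately.

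**Figure D3:**
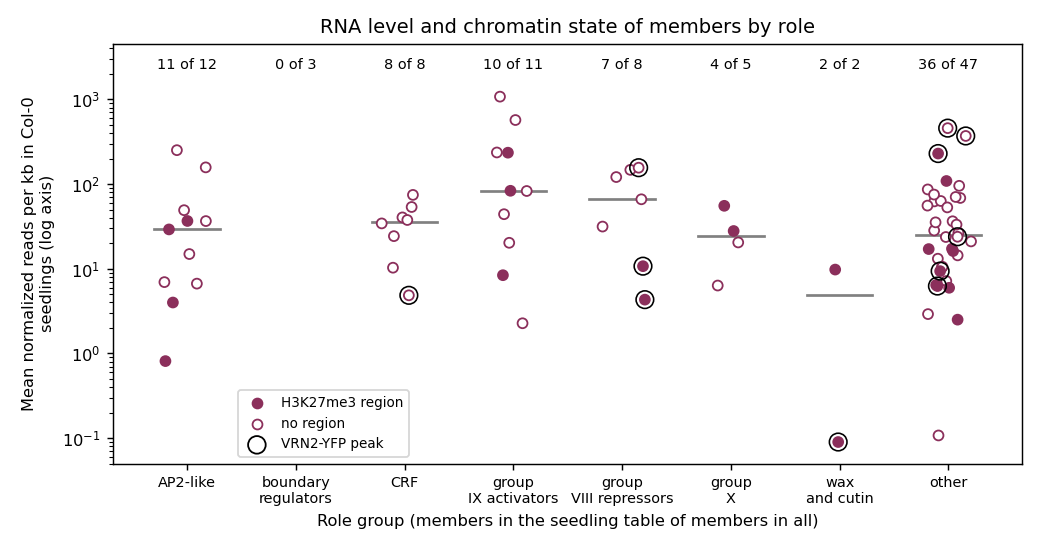
Mean normalized reads per kb in Col-0 seedlings (y axis, log) for the members in the seedling table by role group (x axis), with a grey bar for the median. Filled points have an H3K27me3 region and ringed points a VRN2-YFP peak: ringed open points run from CRF1 at 4.85 to RAP2.4 at 457, and ringed filled points lie at or below 10.7 except ERF055 at 229.

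No member passed the test in any of the 5 seedling comparisons. In vrn2-5 against Col-0, limma called 0 of 63 members, with 0.0238% of all 16820 genes called. At an unadjusted p under 0.05 there were 2 members (3.17%, against 2.85% of genes), and edgeR and DESeq2 on the recovered reads each called none. The median log2 difference of the members was 0.02, beside 0.00 over all genes, with 34 of 63 above 0. Groups did not overlap for 1 member higher (2.74% of genes) and 3 lower (2.76% of genes). The 3 lower were ERF1A, ERF2 and ORA47, an activator of jasmonate synthesis.

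ERF2, a GCC-box activator induced by ethylene and jasmonate, had 127, 103 and 95.8 normalized reads in Col-0, against 66.8, 60.0 and 46.9 in vrn2-5. The double mutant libraries had 53.4, 59.6 and 54.6, and those of prt6-1 had 49.6, 81.5 and 62.7. All 9 mutant libraries lay below the lowest Col-0 library. The log2 difference was -0.86 (SE 0.22; adjusted p = 1, limma) in vrn2-5 and -0.72 (SE 0.22; adjusted p = 0.943, limma) in prt6-1, so neither passed. Both comparisons share the Col-0 libraries. ERF1A also had all 9 mutant libraries below the lowest Col-0 library, and the share of all genes with this order was not counted. Neither gene body nor upstream region of ERF2 had a shared peak or the mark.

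AIL6 had 0, 0 and 36.9 normalized reads in Col-0, against 31.2, 49.97 and 40.2 in vrn2-5. The Col-0 libraries at 0 are shallow, where 1 read is worth 3.54 or 3.75 normalized reads, and the deep one lies among the mutants. Its log2 difference of 2.14 (SE 0.73; adjusted p = 1, limma) turned to -0.21 in the 6 deep libraries alone and reached 3.16 (adjusted p = 0.0345, limma) without Col-0 replicate 3. CRF10 had 133, 245 and 151 normalized reads in vrn2-5 and 118 to 120 in Col-0, a log2 difference of 0.50 that did not pass. RAP2.10 and AT4G13040 completed the 5 of largest t, at 0.41 and -1.81, and the latter was 0.10 in the deep libraries.

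In prt6-1 against Col-0, 0 of 63 members passed, with 0.184% of genes called. ERF055 came nearest. It had 480, 266 and 519 normalized reads in Col-0 and 453, 400 and 489 in vrn2-5, against 137, 145 and 177 in the libraries labelled prt6-1 and 197, 298 and 197 in the double mutant. The prt6-1 libraries were all below the lowest Col-0 library, and the groups did not overlap. The log2 difference was -1.38 (SE 0.25; adjusted p = 0.0920, limma). It passed with DESeq2 on the recovered reads (-1.45, adjusted p = 8.08e-05) and without Col-0 replicate 2 (-1.68, adjusted p = 0.00886, limma), and edgeR gave an adjusted p of 0.0563. Over 15 alternatives the log2 difference ran from -1.68 to -1.20, and in 13 of them ERF055 was not called. The difference was -1.66 in the deep and -1.35 in the shallow libraries.

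With vrn2-5 in both groups, vrn2-5 prt6-1 against vrn2-5, ERF055 differed by -0.96 (SE 0.25; adjusted p = 0.409, limma), and these groups did not overlap either. No member of the 63 passed there, with 0.208% of genes called. Against prt6-1 the double mutant was higher in every library, by 0.56 (SE 0.25; adjusted p = 1, limma). Senescence markers also differed between these groups, though none of the 4 tested was called in either comparison. The summed level of the 5 in the table was 471 to 797 normalized reads in Col-0 and 530 to 667 in vrn2-5, against 351 to 401 in prt6-1 and 371 to 397 in the double mutant, with SAG12 absent from the table. The sums of prt6-1 and the double mutant overlapped. The part of these markers in the ERF055 values was not tested.

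ERF1A did not pass in these comparisons. The Col-0 libraries had 379, 219.5 and 243 normalized reads and those of vrn2-5 had 209.6, 169.9 and 204. The prt6-1 libraries had 129.7, 174 and 172, and the double mutant had 138, 55.01 and 138. Both single mutants lay below Col-0 and the double mutant lay below vrn2-5. Log2 differences were -0.78 (SE 0.33, adjusted p = 1, limma) in prt6-1 and -0.89 (SE 0.33, adjusted p = 0.713, limma) for the double mutant against vrn2-5. Over all 63 members, 23 were above 0 in prt6-1 (36.5%, against 50.7% of genes; median -0.08, beside 0.01 over all genes). In the double mutant against vrn2-5, 24 were above 0 (38.1%, against 51.7% of genes; median -0.06, beside 0.01). An unadjusted p under 0.05 was reached by 4 members in prt6-1 (6.35%, against 4.14% of genes) and by 5 in the other comparison (7.94%, against 6.18%).

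Groups did not overlap for 5 members higher in prt6-1 (4.90% of genes), namely CRF10, SMZ, ERF15, ERF035 and ERF062, and for 3 lower (4.65% of genes), ERF055, ERF1A and ERF2. In the double mutant against vrn2-5 it was 1 member higher (5.96% of genes), ERF062, and 6 lower (5.02% of genes), ERF107, WRI4, ERF055, ERF1A, ERF043 and AIL6. ERF107 had 1507, 1549 and 1582 normalized reads in vrn2-5, against 1192, 1036 and 1223 in the double mutant, and the groups did not overlap. Its log2 difference was -0.43 (SE 0.18; adjusted p = 0.781, limma). ERF043 and ERF062 were low genes, with differences of -1.01 and 0.80. ANT stood at 49.9 to 74.4 in Col-0 and 73.1 to 111 in prt6-1, which overlap.

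The double mutant against prt6-1 gave 0 of 63 members, with 0% of genes called (0 genes in limma, edgeR and DESeq2, and 191 at an unadjusted p under 0.05 in limma). Besides ERF055, the 5 members of largest t were ORA47 (-1.20), ERF1A (-0.60), ERF061 (0.71) and ERF039 (0.62), none past the threshold. ERF055, ERF10 and ERF061 were higher without overlap (3.56% of genes) and no member was lower without overlap (2.50% of genes). The test of whether vrn2-5 acts differently with prt6-1 gave 0 of 63 members, with 0.00595% of genes called. Its leading members were AIL6 (-2.54, adjusted p = 1.00, limma) and ERF2 (0.69, adjusted p = 1.00, limma), followed by ANT, AT4G13040 and CRF10.

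**Figure D4:**
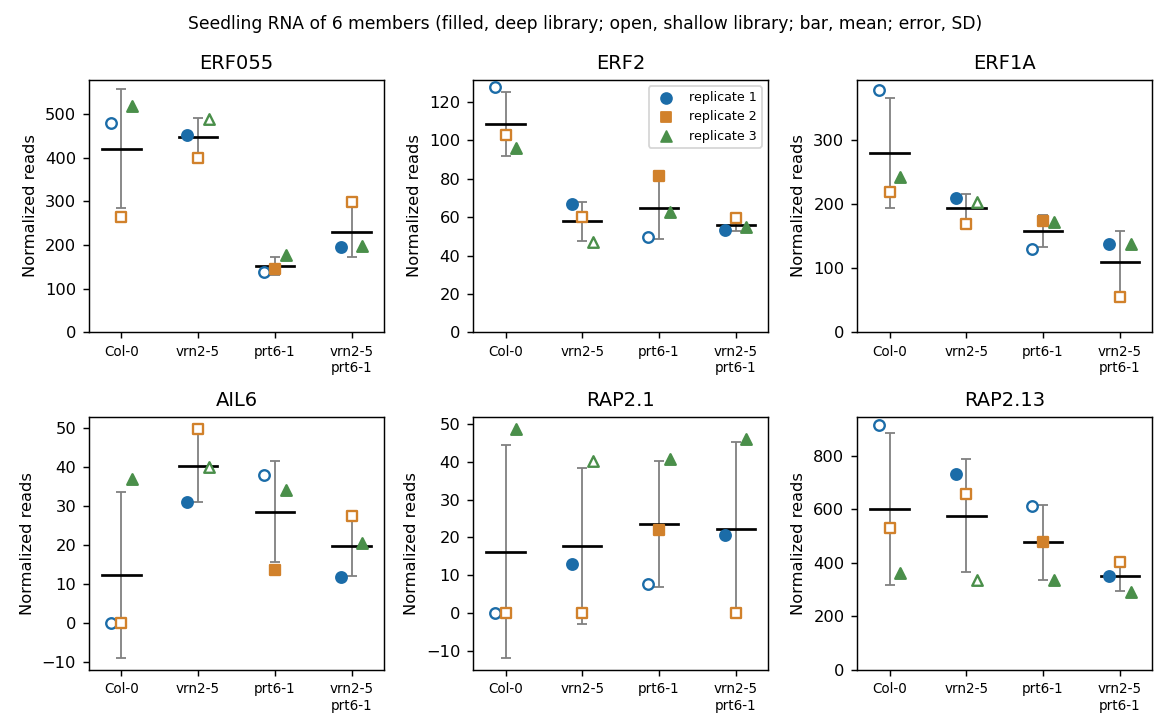
Normalized reads (y axis) of 6 members in the 12 seedling libraries by genotype (x axis), with mean and SD, filled symbols for deep and open ones for shallow libraries. ERF055 is low in prt6-1 at 137 to 177, ERF2 is highest in Col-0, AIL6 is at 0 in both shallow Col-0 libraries, and RAP2.1 is highest in replicate 3 of every genotype.

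Some members followed the replicate number across genotypes. Replicate 3 was the highest library in all 4 genotypes for 7 of 63 members (2020 of 16820 genes), and the lowest in all 4 for another 4 (1960 of 16820 genes). The 7 included RAP2.1, a cold-induced DREB-branch repressor, at 40.2 to 48.8 normalized reads in replicate 3 of the 4 genotypes, against 0 to 21.97 in the other libraries. ERF9, a group VIII repressor, had 51.4 to 90.5 in replicate 3 and 11.4 to 28.8 elsewhere. RAP2.13 was lowest in replicate 3 of every genotype, at 293 to 361, against 353 to 915 in the others. CRF5 was the lowest in replicate 3 and the highest in replicate 1. The labels do not say what replicate 3 shared.

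In rosettes, edgeR called 0 of 70 tested members in vrn2-5 pif4-2 against pif4-2, with 0% of 18561 genes called (0 genes, 441 at an unadjusted p under 0.05, and 7 genes but no member with DESeq2). The median log2 difference was 0.04, beside -0.01 over all genes. Groups did not overlap for 12 members higher (17.5% of genes) and 13 lower (15.9% of genes). In the authors' deposited table no member passed either, with 0.987 as the lowest adjusted p of the 96.

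At an unadjusted p under 0.05 (edgeR) there was 1 of 70 members, an AP2-like factor that was higher (1.43%, against 2.38% of genes). ERF9 had the largest statistic but did not reach that p. Its counts were 12 and 15 in pif4-2 and 0 and 0 in the double mutant, where a count of 0 falls in libraries with many zeros. In CPM (counts scaled to library size), SNZ had 43.7 and 48.9 in pif4-2, against 70.8 and 84.2, and the groups did not overlap. Its log2 difference was 0.78 (SE 0.29; adjusted p = 0.945, edgeR). ERF4 had 17.9 and 15.7 CPM against 11.3 and 10.7, a difference of -0.59 (SE 0.27; adjusted p = 0.945, edgeR), and it did not overlap either. CRF4 and CRF3 read 2.46 and 2.64, mostly from double mutant replicate 2, where CRF4 had 7.71 CPM against 1.45 in replicate 1.

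With 1 double mutant library left out, the spread came from the pif4-2 libraries alone and the remaining library was assumed to vary like them. Without replicate 1, edgeR then called 39 of the 70 members and 10727 of all 18561 genes, and without replicate 2 it called 3 members and 1397 genes. Without either pif4-2 library it called none. The 3 members were ERF13, ERF5 and ERF1A, and each differed between the double mutant libraries: ERF1A had 1.07 and 5.74 CPM, ERF5 had 0 and 2.81, and ERF13 had 2.07 and 0. In replicate 1 the ethylene and jasmonate output genes summed to 386 CPM, against 44.5 and 102 in pif4-2 and 105 in replicate 2. Senescence markers summed to 136 there, against 25.6 to 43.0 in the other libraries. Their part in these values was not tested.

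**Figure D5:**
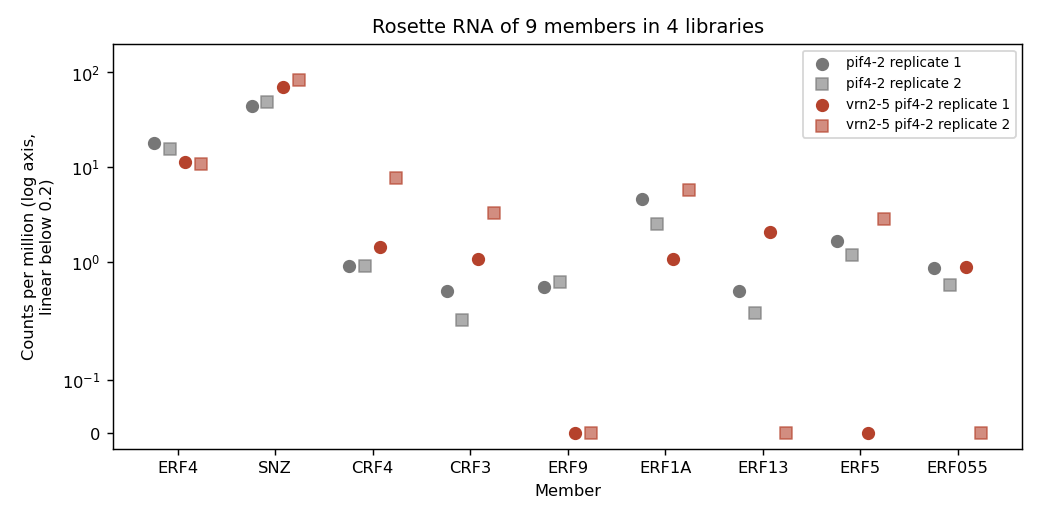
CPM (counts scaled to library size; y axis, log with a linear part below 0.2) of 9 members in the 4 rosette libraries. SNZ (higher, as were 17.5% of genes) and ERF4 (lower, as were 15.9%) did not overlap between the genotypes, and neither passed the test. ERF1A, ERF13, ERF5 and ERF055 differ between the double mutant libraries.

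The rest of the ethylene pathway was looked at through lists that hold no member. Of the ethylene synthesis genes, 1 of 10 tested passed in prt6-1 against Col-0 and none of the 14 tested receptors and signalling genes did. That gene was ACO1, an ethylene-forming oxidase, with 80.1, 178 and 186 normalized reads in prt6-1 against 0, 0 and 8.66 in Col-0. The log2 difference was 4.36 (SE 0.56; adjusted p = 0.00740, limma), and in the double mutant against vrn2-5 it was 4.76 (adjusted p = 0.00296, limma). Basic chitinase CHIB, a defence output gene, was the 1 of 7 tested output genes to pass in the latter comparison, at 1.49 (adjusted p = 0.0212, limma). Of 14 tested touch and wound genes, CML38 rose in both (2.36 and 3.03, adjusted p = 0.0206 and 0.00249, limma), and the median of the list was -0.34 and 0.00. In vrn2-5 against Col-0, in the double mutant against prt6-1 and in rosettes no listed gene passed. The touch and wound list had 3 of 14 genes above 0 in vrn2-5, with a median of -0.42 beside 0.00 over all genes. The output list had 1 of 7 above 0 there, with a median of -0.43. In the double mutant against prt6-1 these lists had 7 of 14 and 4 of 7 above 0, with medians of -0.04 and 0.03.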

How the data were processed

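Members and lists were chosen with earlier results of these data known. The submitters' processing notes name the TAIR10 build, Bowtie and DESeq2 on RNA samples, BWA on chromatin samples, MACS2 on replicate 1 and MACS3 on replicate 2 of VRN2-YFP, and SICER on 1 H3K27me3 sample, with no versions. A peak caller for replicate 3 is not given in the sources used. The AB290 antibody served for VRN2-YFP, per the labels' protocols, and none is named for the histone mark. RNA libraries used the TruSeq mRNA kit, and the strand setting of counting is not given, so reads of overlapping genes on opposite strands cannot be told apart.

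The seedling table deposited by the authors gives a normalized signal, in which each library's reads share 1 scaling factor. Division by the value of 1 read gave whole reads for 100% of values (tolerance 0.01). limma 3.58.1 with an intensity-dependent prior was fitted to log2(value + 5) for the 16820 genes (of 18480) whose mean reached 10. The fit used the 12 libraries together and had no term besides genotype. Differences on this scale understate those of low genes. For rosettes the authors deposited raw counts, FPKM, log2 fold changes and p-values. Counts for 18561 of 21884 genes were tested with edgeR 4.0.16 (quasi-likelihood, TMM). The authors' peak lists give a fold ratio over background and the −log10 of a q-value. The H3K27me3 tables deposited by the authors give read counts, a normalized signal, their ratio and a false discovery rate (p-value) per region. limma tested the log2 ratio of 3 replicate tables against 0 over 4627 genes. The largest overlapping region stood for a gene. Adjusted p-values (Benjamini-Hochberg) had a threshold of 0.05. DESeq2 1.42.0, R 4.3.3, Python 3.11.15, pandas 2.3.3 and numpy 2.4.6 were also used. Fits were tested on simulated data with the same spread setting for all genes. The simulated data lacked the replicate 3 pattern and the stray zeros of the real libraries, so they do not show how the fits behave under these.

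Named were members called in a comparison, the 5 of largest statistic in each of 6 expression comparisons, the 8 of highest peak fold, the 6 of largest mark ratio in each direction, the 10 and 5 most abundant members in Col-0 seedlings and pif4-2 rosettes, and members called for the mark. Others were named after their values were seen. Gene symbols of the members came from the deposited table and RefSeq (TAIR10.1), which matched all 96.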

Additional observations from a re-analysis of the deposited data

How the results depend on the processing

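Seedling comparisons kept 0 called members in all 15 alternatives (20 for the interaction), except vrn2-5 against Col-0, where leaving out 1 library gave 0 to 1 (AIL6), and prt6-1 against Col-0, where DESeq2 gave 1 and leaving out 1 library 0 to 1 (ERF055 in both). Rosettes gave 0, or 0 to 39 with 1 library left out, and the mark gave 3, or 0 to 3. Shared peaks were at 14 members, at 6 when all 3 lists were asked for, and at 6 to 14 with 1 list left out. Members with less mark were 11, 3 in all tables and 3 to 9 with 1 table left out. Those with more mark were 5, 1 in all tables, 3 at an overlap of 500 bp, 2 at a false discovery rate of 0.01, and 1 to 4 with 1 table left out. Of 465 alternative values of 35 named results, 446 kept direction and side of the threshold, 7 gained and 8 lost the call. The 4 that turned sign all did so in the 6 deep libraries, an alternative added after seeing the data: AIL6 at -0.21 in vrn2-5 and -0.63 in prt6-1, AT4G13040 at 0.10 in vrn2-5, and ERF039 at -0.0685 in the double mutant against prt6-1. The cause was not tested. Counts of called genes over the whole table ran over the alternatives from 0 to 23 in vrn2-5 (4 as reported), 0 to 55 in prt6-1 (31), 0 to 64 in the double mutant against vrn2-5 (35), 0 to 6 for the interaction (1) and 0 to 10727 in rosettes (0). Each upper value came with DESeq2, except 23 without Col-0 replicate 3 and 10727 without double mutant replicate 1. For the mark the 612 genes became 376 after centring and 0 without replicate 2 or 3. Seedling replicate numbers were not treated as pairs, since deviations of same-numbered libraries correlated at -0.22 to 0.56 and 6 of 12 libraries correlated best with their own number, although replicate 3 stood apart across genotypes for many genes. A replicate block left 0 members called in every expression comparison, as did a term for replicate 3 in seedlings. The 6 shallow seedling libraries limit members under about 10 normalized reads, and higher ones as well. In each of them 46 to 115 genes were at 0 though the mean of the other libraries was at least 100. The 2 rosette libraries of the double mutant limit the rosette comparison.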

Other observations

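RAP2.7, the TOE1 repressor of flowering, had 0 reads in replicate 2 of the seedling double mutant, while its other libraries had 29.99 to 311 normalized reads. It was the only member at 0 in a library where the mean of the other libraries was at least 100. Over all genes, 68 of 8930 such genes were at 0 in that library. The other shallow libraries had 46 to 115 such genes, and the deep ones 1 to 2. SNZ, its relative, was at 0 in replicates 2 and 3 of vrn2-5 and in replicate 2 of the double mutant, against 16.2 to 98.8 in the other libraries.

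ERF055 had a VRN2-YFP peak in every list and 1 of the 10 highest RNA levels in Col-0 seedlings. Its H3K27me3 region was lower in 2 of the 3 tables by the authors' false discovery rate. The mean log2 ratio of that region was -0.10, and limma did not call it. The 624 genes with a peak and a region in all 3 tables had a median of -0.09. RNA of ERF055 in vrn2-5 was 447 ± 45.1 normalized reads, beside 421 ± 136 in Col-0 (SD, n = 3).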
